A study of Mus musculus with 24 samples.

Results

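The genes described here are 10 imprinted genes of the mouse: Mest, Peg3, Peg10, Sgce, Ndn, Plagl1, Dlk1, Grb10, Meg3 and H19. Their members on the array were every probe set, a group of short probes for 1 transcript, that the array's annotation maps to 1 of these symbols. This gave 37 of the 45101 probe sets. For each gene the brightest probe set on average, among those mapped to that symbol alone, gave the value reported first, and 9 of the 10 genes had one. H19 had only 1 probe set, which the annotation maps to both H19 and Mir675, the microRNA gene that lies within it, so it is reported as Mir675/H19 and left out of the counts over the 9 genes.

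An imprinted gene is transcribed mainly from the copy inherited from 1 parent, and methylation set in the germ line marks the parental copies differently. Several paternally expressed genes, Mest and Peg3 among them, are known to favour fetal growth, and several maternally expressed genes, such as H19 and Grb10, to restrain it. Many of these genes are high in the embryo, in placenta and in muscle and mesenchymal progenitors, and decline after birth. An array of this kind measures both parental copies together, so the values say nothing of which copy was read.

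RNA from P19 cells and MEFs was hybridized to 24 Affymetrix mouse arrays, 1 per sample, in 8 groups of 3. P19 is a mouse embryonal carcinoma line that behaves as a pluripotent cell, and the MEFs were fibroblasts from embryos with both Myod and Myf5 deleted (Myod-/-/Myf5-/-), a genotype that their controls share. In batch 1, P19 cells with a lentivirus carrying MyoD were set against untransduced P19 cells, and MEFs with MyoD against untransduced MEFs. Batch 2 held MEFs labelled NeuroD2 and untransduced MEFs, and batch 3 held P19 cells with NeuroD2 and untransduced P19 cells. MyoD and NeuroD2 are basic helix-loop-helix factors that drive muscle and neuronal differentiation, and both bind E-boxes, sites of the form CANNTG. Infected cells received 8 µg/ml polybrene and fresh medium after 24 hours, and P19 cells were harvested at 72 hours. MEFs with MyoD moved at 48 hours to a medium with 1% horse serum, 10 µg/ml insulin and 10 µg/ml transferrin and were harvested 36 to 40 hours later. The change of medium was made for the MyoD MEFs and not described for their controls, so factor and medium cannot be told apart there. No harvest time was stated for the MEFs labelled NeuroD2. The samples are described as triplicates, and nothing says that each was its own culture. The p-values here reflect only how far samples varied within the 8 groups, which may be technical. Each probe set had 1 spread, estimated from all 24 arrays. The p-value of a MEF pair therefore also carries the spread of the P19 groups, and the reverse.

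Values are log2 signals, so a difference of 1 is a doubling of signal. Medians of 23 arrays lay between 5.76 and 5.84. Replicate 2 of the batch 1 P19 controls stood apart, with a median of 5.99, an upper quartile of 7.63 against 8.23 to 8.40 elsewhere, and a mean correlation of 0.917 with the others of its group. P19 control replicate 1 of batch 3 had a within-group correlation of 0.986 and stood apart for several of the genes below. Myod1 was 3.94 higher in P19 cells with MyoD than in their controls, and 5.55 higher in MEFs with MyoD than in theirs. Of 3 probe sets for Neurod2, 1 was higher in P19 cells with NeuroD2 (log2 difference 1.70, limma adjusted p = 2.17e-06), and none passed in MEFs labelled NeuroD2, where the brightest differed by 0.21 (limma adjusted p = 0.71). The Myf5 probe set averaged 10.07 and 9.44 in the 2 groups of MEF controls, and the sources do not say whether it lies in the deleted part of the gene.

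Promoter sequences are shown because both factors bind E-boxes. They cover the genes whose signal moved most in the MEFs among those with a sequence window. Each window of 300 bases runs from 250 bases before to 50 after an annotated start of the gene (RefSeq, GRCm38.p6). At least 1 window was available for 7 of the 10 genes, 10 windows in all, and Peg10, Sgce and H19 had none. The sequences read 5′ to 3′ on the gene's own strand, and capitals mark every CANNTG.
Mest upstream start (chr6:30733256-30733555, plus strand): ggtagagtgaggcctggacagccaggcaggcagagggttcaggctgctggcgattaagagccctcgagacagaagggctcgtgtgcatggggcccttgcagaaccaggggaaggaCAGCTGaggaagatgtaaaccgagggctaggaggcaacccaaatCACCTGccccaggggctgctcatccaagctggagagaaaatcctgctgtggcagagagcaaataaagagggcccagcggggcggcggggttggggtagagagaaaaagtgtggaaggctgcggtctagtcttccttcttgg
Mest downstream start (chr6:30737800-30738099, plus strand): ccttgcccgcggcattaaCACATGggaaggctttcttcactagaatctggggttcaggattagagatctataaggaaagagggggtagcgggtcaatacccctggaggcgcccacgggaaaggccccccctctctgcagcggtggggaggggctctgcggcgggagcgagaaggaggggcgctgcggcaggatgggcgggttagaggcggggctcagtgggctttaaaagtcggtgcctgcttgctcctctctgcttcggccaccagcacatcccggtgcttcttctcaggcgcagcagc
Peg3 (chr7:6730370-6730669, minus strand): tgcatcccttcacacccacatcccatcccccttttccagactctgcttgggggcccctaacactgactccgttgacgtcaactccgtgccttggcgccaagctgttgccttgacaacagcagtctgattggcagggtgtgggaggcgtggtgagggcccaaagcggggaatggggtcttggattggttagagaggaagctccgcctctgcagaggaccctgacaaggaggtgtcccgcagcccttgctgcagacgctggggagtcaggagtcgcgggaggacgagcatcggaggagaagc
Plagl1 (chr10:13090582-13090881, plus strand): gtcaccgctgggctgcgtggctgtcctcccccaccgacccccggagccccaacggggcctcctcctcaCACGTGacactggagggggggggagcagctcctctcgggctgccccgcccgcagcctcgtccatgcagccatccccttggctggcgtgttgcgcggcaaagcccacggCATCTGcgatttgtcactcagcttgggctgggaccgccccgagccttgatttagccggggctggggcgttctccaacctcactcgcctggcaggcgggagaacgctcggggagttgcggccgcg
Dlk1 (chr12:109452573-109452872, plus strand): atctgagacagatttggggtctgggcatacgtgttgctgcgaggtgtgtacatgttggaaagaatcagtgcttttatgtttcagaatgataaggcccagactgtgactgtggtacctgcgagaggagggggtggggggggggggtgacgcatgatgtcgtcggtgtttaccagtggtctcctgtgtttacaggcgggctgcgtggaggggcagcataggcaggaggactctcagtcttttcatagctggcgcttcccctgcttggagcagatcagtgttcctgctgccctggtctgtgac
The upstream Mest window held CAGCTG at -135 and CACCTG at -91 from the start, and the downstream one held CACATG at -232. Plagl1 had CACGTG at -182 and CATCTG at -74, and the windows of Peg3 and Dlk1 held no CANNTG. An E-box stood in 5 of the 10 windows, against 72.3% of all 32851 windows of this length in the same table, searched on both strands. CAGCTG was in 1 of the 10, against 16.3% of all windows, CAGGTG or CACCTG in 1, against 20.2%, and CAGATG or CATCTG in 1, against 17.2%. These are matches of letters in a short window, and binding was not measured here.

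The mature microRNAs of Mir675 are shown because the H19 signal comes from a probe set that carries both names. Capitals mark the seed, bases 2 to 8, and the sequences are from RefSeq (GRCm38.p6).
mmu-miR-675-5p: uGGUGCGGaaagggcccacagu
mmu-miR-675-3p: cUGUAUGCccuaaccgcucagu
The 2 seeds, GGUGCGG and UGUAUGC, differ. The array probe set reads a long transcript and not the mature forms.

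Mest lies between Cep41 and Copg2 on chromosome 6, holds Mir335 within it, and encodes a protein of the alpha/beta hydrolase fold that is abundant in embryonic mesoderm. It was below the median signal of the array in untransduced MEFs and above the upper quartile of signals in both transduced MEF groups. MEFs with MyoD read 10.68, 10.75 and 10.72, against 5.38, 5.16 and 4.998 in their controls. MEFs labelled NeuroD2 read 11.91, 12.02 and 11.93, against 5.69, 5.66 and 5.06 in theirs. Mest had 1 probe set on the array, so no other could be set beside it. In both pairs the groups lay far apart. The rise was 46.5-fold with MyoD (log2 difference 5.54, SE 0.185, limma adjusted p = 3.01e-15) and ranked 44 among the rises of 18193 genes. It was 89.6-fold in MEFs labelled NeuroD2 (log2 difference 6.48, SE 0.185, limma adjusted p = 1.64e-15) and ranked 3. Low array signals are compressed toward background, so such folds can be understated.

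All 4 P19 groups had high Mest. P19 cells with MyoD read 12.65, 12.68 and 12.67, against 12.71, 12.05 and 12.77 in their controls, and the groups overlapped. The difference was 0.16 (95% interval -0.23 to 0.54, limma adjusted p = 0.548). P19 cells with NeuroD2 read 12.76, 12.36 and 12.43, against 11.91, 12.37 and 12.36 in their controls. That difference, 0.30 with an interval of -0.08 to 0.69, also did not pass (limma adjusted p = 0.515). The NeuroD2 effect in MEFs exceeded that in P19 cells by 6.18 (SE 0.261, limma adjusted p = 1.3e-12), the largest such excess among the 18193 genes. The MyoD effect in MEFs exceeded the MyoD effect in P19 cells by 5.38 (limma adjusted p = 4.61e-12). Within MEFs, the MyoD effect was 0.95 lower than the NeuroD2 effect (limma adjusted p = 0.016), a call that ended without MEF control replicate 1 of batch 1 (adjusted p = 0.0534) or replicate 3 of batch 2 (adjusted p = 0.056).

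Ordered by level, the 4 P19 groups came first for Mest, with means from 12.67 to 12.21, and neighbours in that order overlapped. MEFs labelled NeuroD2 followed at 11.96 ± 0.058 and overlapped the lowest P19 group. MEFs with MyoD, at 10.72 ± 0.036, overlapped neither neighbour, and the MEF controls of batch 2 and batch 1, at 5.47 ± 0.36 and 5.18 ± 0.19, overlapped each other (SD, n = 3 each).

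**Figure D1:**
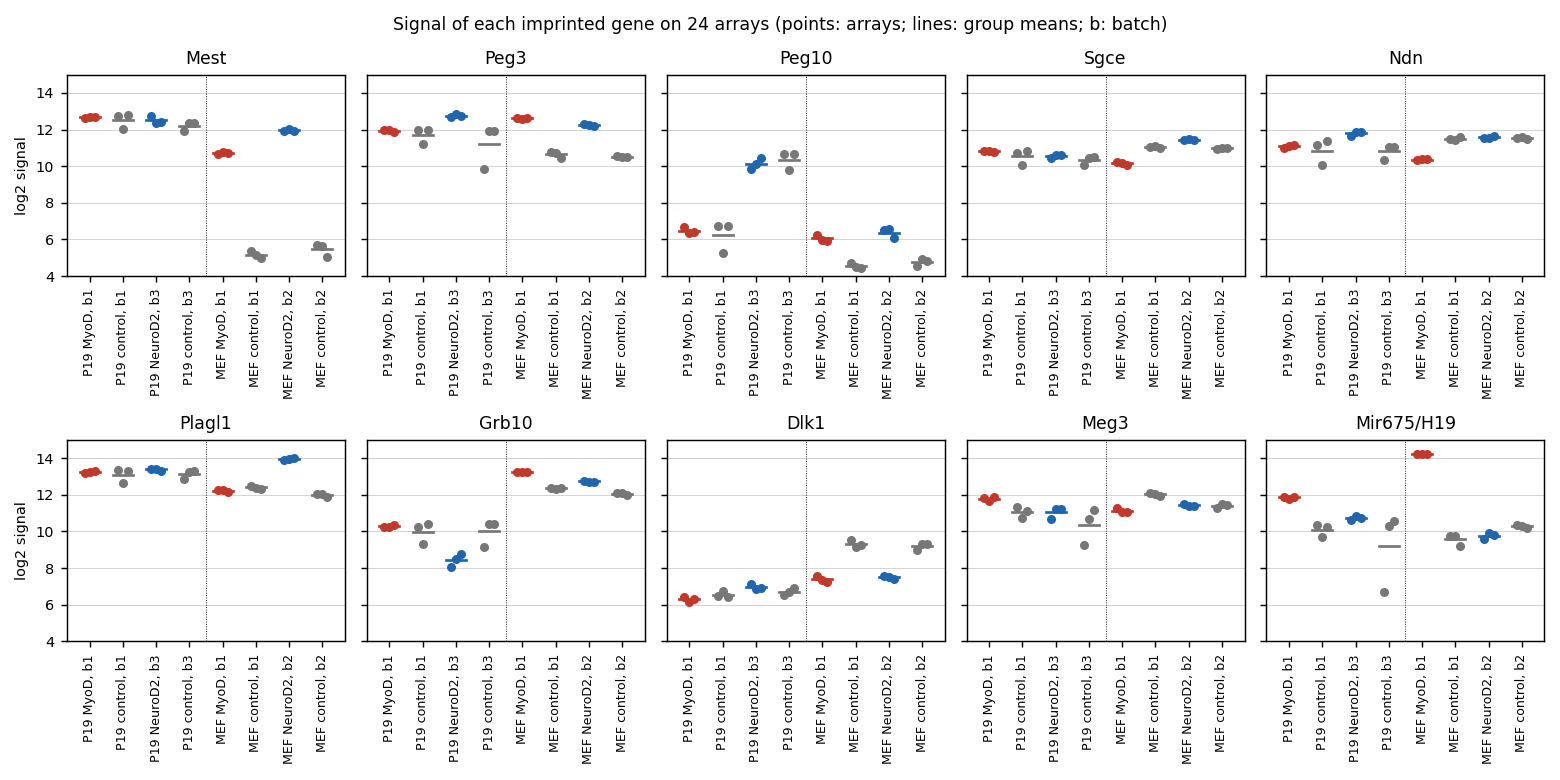
Log2 signal (vertical axis) of each gene on the 24 arrays, 3 per group, with the mean of each group as a line; P19 groups stand left of the dotted line and MEF groups right of it, and b gives the batch. Mest lay above 10.6 in every group but the MEF controls, which lay at 5.69 or below, and Peg10 lay above 9.7 in the 2 P19 groups of batch 3 alone.

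The 9 genes were chosen with earlier results of these data known, so their shares of calls are given as description. In MEFs with MyoD 8 of the 9 were called, 4 higher and 4 lower, where 24.4% of the 18193 genes were called. The median size of change was 1.14 for the 9 genes and 0.192 for all genes. MEFs labelled NeuroD2 had 6 of 9 changed, 5 higher and 1 lower, where 11.9% of genes were called, with a median size of 1.61 against 0.156 for all genes. In P19 cells with NeuroD2 3 of 9 changed, 2 higher and 1 lower, where 7.82% of genes were called. None of the 9 was called by limma in P19 cells with MyoD, where 2.51% of genes were called and 1 of the 9 had an unadjusted p under 0.05.

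Cell markers moved in the same arrays. In MEFs with MyoD all 8 skeletal muscle markers rose, with summed signals of 103000 to 109000 against 423 to 460 in controls, and 6 of 8 fibroblast markers fell, with sums of 29800 to 32500 against 71000 to 77700. In MEFs labelled NeuroD2 1 of 8 neuronal markers rose (sums 558 to 587 against 306 to 417) and 1 of 8 fibroblast markers fell (85100 to 88700 against 85500 to 87400). P19 cells with NeuroD2 had 8 of 8 neuronal markers higher (10600 to 16200 against 2230 to 3690), 3 of 6 epithelial markers lower and 0 of 8 pluripotent markers called. P19 cells with MyoD had 6 of 8 muscle markers higher (8340 to 8590 against 1750 to 2170). The part of these shifts in the changes of the imprinted genes was not tested, and in whole cultures fewer cells of a type and less RNA per cell cannot be told apart.

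**Figure D2:**
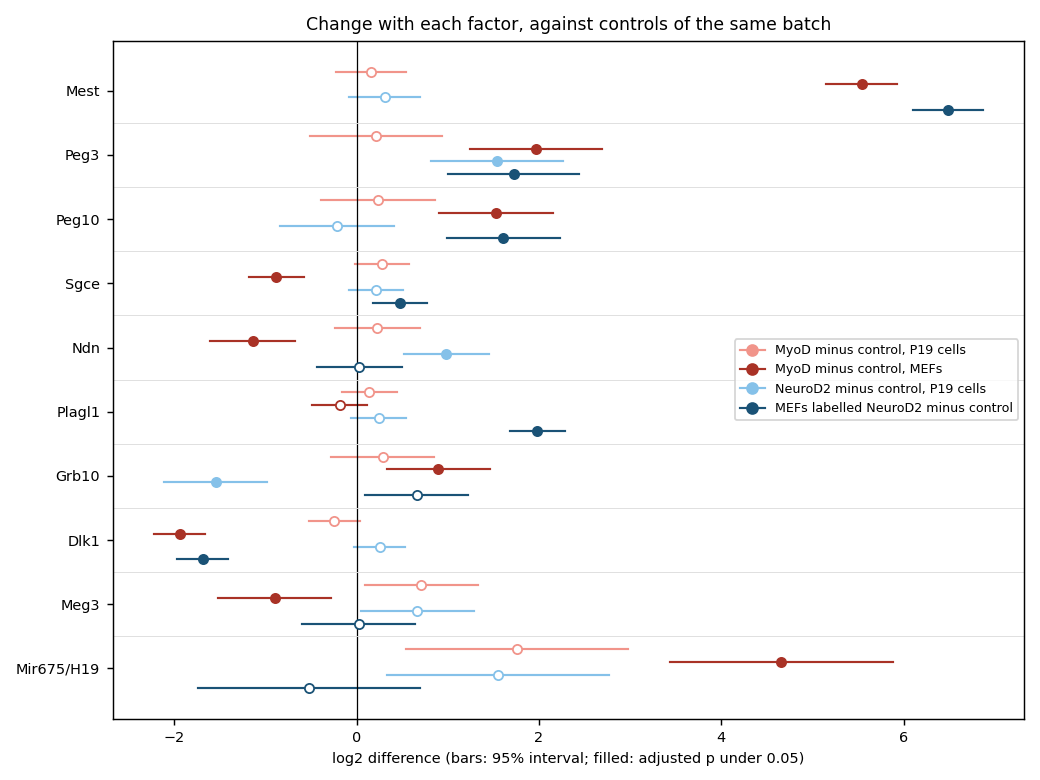
Log2 difference of each gene from untransduced controls of the same batch (horizontal axis), with 95% intervals, for the 4 pairs of groups; filled points passed an adjusted p of 0.05. Mest stands at 5.54 and 6.48 in the MEF pairs and at 0.16 and 0.30 in the P19 pairs. With MyoD in MEFs, Dlk1, Ndn, Meg3 and Sgce lie below 0 as filled points, and Plagl1 as an open one.

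Peg3 encodes a large zinc-finger protein and lies between Zim1 and Usp29 on chromosome 7. It rose in 3 of the 4 pairs. With MyoD, MEFs read 12.64, 12.57 and 12.64, against 10.78, 10.70 and 10.47 in controls. MEFs labelled NeuroD2 read 12.27, 12.24 and 12.19, against 10.54, 10.50 and 10.50. Both MEF pairs were fully separated, with rises of 3.91-fold (log2 difference 1.97, SE 0.346, limma adjusted p = 0.000197) and 3.30-fold (1.72, limma adjusted p = 0.00159). P19 cells with NeuroD2 read 12.67, 12.85 and 12.76, against 9.82, 11.93 and 11.91 in controls. The low value was control replicate 1. The rise was 1.54 (limma adjusted p = 0.00744), and 0.84 without that control array (limma adjusted p = 0.00215). Fitted on the 6 compared arrays alone, it missed the threshold (limma adjusted p = 0.167). P19 cells with MyoD differed by 0.21 (limma adjusted p = 0.681). Of the 5 Peg3 probe sets, the 3 bright ones rose in each of those 3 pairs, by 1.54 to 2.23, and the 2 dim ones passed in none.

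Peg10 and Sgce lie side by side on chromosome 6, next to Casd1, and share an imprinted control region. Peg10 derives from a retrotransposon and is needed for the placenta, and Sgce encodes epsilon-sarcoglycan, a membrane protein of the complex that ties the cytoskeleton to the matrix. Peg10 had 1 probe set on the array, so no other could be set beside it. Peg10 rose in both MEF pairs, while Sgce fell with MyoD and rose with the NeuroD2 label. Peg10 read 6.27, 5.98 and 5.94 in MEFs with MyoD, against 4.69, 4.48 and 4.42 in controls, and 6.50, 6.55 and 6.07 in MEFs labelled NeuroD2, against 4.54, 4.92 and 4.82. The groups did not overlap, and the rises were 1.53 (limma adjusted p = 0.000585) and 1.61 (limma adjusted p = 0.000711). Sgce read 10.24, 10.16 and 10.08 in MEFs with MyoD, against 11.07, 11.08 and 10.98 in controls, a fall of 0.88 (SE 0.142, limma adjusted p = 7.6e-05). In MEFs labelled NeuroD2 it read 11.45, 11.47 and 11.44, against 10.95, 10.98 and 10.996, a rise of 0.48 (limma adjusted p = 0.0367). All 6 arrays of each pair were separated. But this small rise missed the threshold when any 1 of the 6 arrays was left out (limma adjusted p 0.0856 to 0.106). Its size then stayed between 0.47 and 0.49. The call ended in 10 of 33 alternatives, and adjusted p (limma) was as low as 8.02e-07 in the others. The MyoD effect on Sgce was 1.36 lower than the NeuroD2 effect (limma adjusted p = 4.42e-05). In P19 cells Sgce differed by 0.27 with MyoD and 0.21 with NeuroD2, and neither passed (limma adjusted p = 0.202 and 0.591). A second, dim Sgce probe set read 5.97, 6.28 and 6.11 in P19 cells with NeuroD2, against 5.11, 5.16 and 5.38 in controls, and was called there (0.90, limma adjusted p = 0.000182).

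Peg10 in P19 cells depended on the batch. P19 controls of batch 3 read 10.66, 9.79 and 10.64, against 6.72, 5.26 and 6.73 in P19 controls of batch 1. This was a 17.4-fold gap (log2 difference 4.12, SE 0.298, limma adjusted p = 4.21e-08), the largest rise of all 18193 genes between the 2 batches. It missed the threshold when only those 6 arrays were fitted (limma adjusted p = 0.17). Without the batch 1 array that stood apart it was 3.63 (limma adjusted p = 7.66e-10). The transduced cells went with their batch: P19 cells with NeuroD2 read 9.86, 10.10 and 10.46, and P19 cells with MyoD read 6.67, 6.34 and 6.40. Against controls of the same batch, the differences were -0.22 with NeuroD2 (limma adjusted p = 0.889) and 0.23 with MyoD (limma adjusted p = 0.593). Against controls of the other batch they would be 3.90 and -3.89. Sgce, the neighbour of Peg10, differed between the same controls by -0.19 (limma adjusted p = 0.362), and its second, dim probe set averaged 5.22 in batch 3, against 4.78 in batch 1 (0.44, limma adjusted p = 0.0466).

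By brightest probe sets, Peg10 was the only 1 of the 9 genes called between the P19 control batches, where 13.4% of all genes were called. Of the 27 further probe sets 4 were called there, 2 higher in batch 3, of Plagl1 (0.65) and Sgce (0.44), and 2 lower, of Ndn (-0.46) and Meg3 (-0.48), where 11.9% of all probe sets were called. Without P19 control replicate 2 of batch 1, 4 of 9 were called, since Mest (-0.53, limma adjusted p = 0.0374), Sgce (-0.42, limma adjusted p = 0.00614) and Ndn (-0.44, limma adjusted p = 0.0464) then passed as lower in batch 3. Between the MEF control batches none of the 9 was called by limma, against 2.69% of genes, and 2 of the 9 had an unadjusted p under 0.05, Plagl1 (-0.42, limma adjusted p = 0.146) and Meg3 (-0.64, limma adjusted p = 0.357). Of the further probe sets 3 were called there, 2 of Grb10 higher and 1 of Meg3 lower (-0.62) in batch 2, where 3.4% of all probe sets were called. Between the P19 batches no pluripotent marker of 8 was called, 2 of 6 epithelial markers were higher in batch 3, and 1 of 8 muscle, 1 of 8 neuronal and 1 of 4 blood and macrophage markers were lower.

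**Figure D3:**
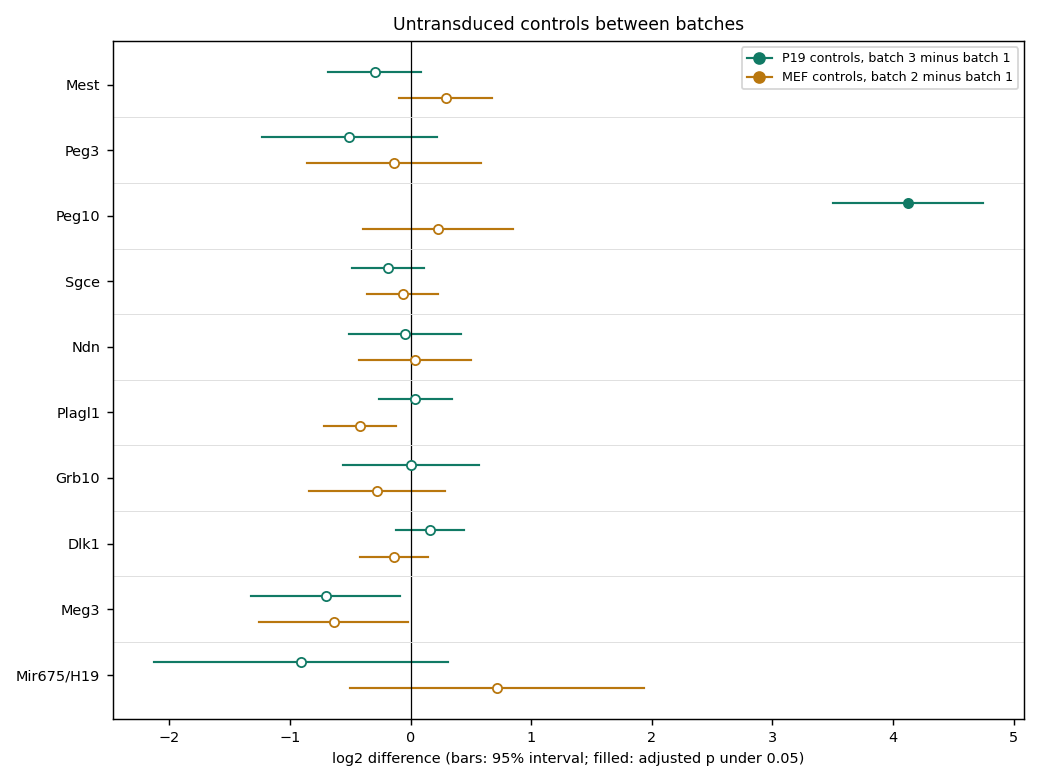
Log2 difference of each gene between untransduced controls of different batches (horizontal axis), with 95% intervals; filled points passed an adjusted p of 0.05. Peg10 stands at 4.12 between the P19 batches, and no other point is filled.

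Ndn encodes necdin, a MAGE-family protein that restrains proliferation and is high in neurons, and lies next to Magel2 on chromosome 7. It fell with MyoD in MEFs and rose with NeuroD2 in P19 cells. With MyoD, MEFs read 10.32, 10.40 and 10.37, against 11.49, 11.45 and 11.58 in controls, a fall of 1.14 (SE 0.223, limma adjusted p = 0.000581). MEFs labelled NeuroD2 and their controls overlapped, between 11.49 and 11.62, with a difference of 0.03 (95% interval -0.44 to 0.49). The MyoD effect was 1.17 lower than the NeuroD2 effect in MEFs (limma adjusted p = 0.0133). P19 cells with NeuroD2 read 11.65, 11.88 and 11.85, against 10.35, 11.05 and 11.03 in controls. The rise was 0.98 (limma adjusted p = 0.00794), and without control replicate 1, the low one, it was 0.75 and missed the threshold (limma adjusted p = 0.0576). Of 8 Ndn probe sets, the 5 bright ones fell with MyoD in MEFs, by 1.10 to 1.38 on the log2 scale, and rose with NeuroD2 in P19 cells by 0.92 to 1.16.

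Plagl1 encodes a zinc-finger transcription factor, also called Zac1, that restrains proliferation and is known to act on other imprinted genes. It rose in MEFs labelled NeuroD2 and in no other pair. Those MEFs read 13.92, 13.94 and 14.02, against 12.03, 12.04 and 11.86 in controls, a 3.95-fold rise (log2 difference 1.98, SE 0.144, limma adjusted p = 2.82e-09). A second probe set rose by 2.81 (limma adjusted p = 4.9e-10), with 10.53, 10.43 and 10.68 against 7.79, 7.86 and 7.58, and another, near 5, did not pass. Both that rose are of the less specific kinds, with names ending in x_at or a_at. When such probe sets were left out, the dim one stood for Plagl1 and the call ended (0.33, limma adjusted p = 0.489). MEFs with MyoD read 12.26, 12.24 and 12.14, against 12.48, 12.38 and 12.33 in controls, just apart but with a difference of only -0.18 (limma adjusted p = 0.523). The MyoD effect was 2.17 lower than the NeuroD2 effect (limma adjusted p = 1.02e-07). In P19 cells the differences were 0.14 with MyoD (95% interval -0.16 to 0.44) and 0.24 with NeuroD2 (-0.06 to 0.54). The NeuroD2 effect in MEFs exceeded that in P19 cells by 1.74 (limma adjusted p = 4.33e-06). The calls of this difference and of the 2.17 difference also ended without the less specific probe sets.

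Dlk1 encodes a transmembrane protein of the Notch ligand family that restrains fat cell differentiation, and its 8 group means ran opposite to those of Mest. It fell in both MEF pairs. The MyoD MEFs read 7.56, 7.35 and 7.25, against 9.55, 9.18 and 9.26 in controls, and MEFs labelled NeuroD2 read 7.59, 7.50 and 7.43, against 8.98, 9.31 and 9.29. Both pairs were separated by more than 1 log2 unit. Dlk1 fell by 1.94 with MyoD (SE 0.134, limma adjusted p = 4.51e-10) and by 1.69 in MEFs labelled NeuroD2 (limma adjusted p = 1.02e-08), ranks 288 and 154 among the falls. The MyoD effect minus the NeuroD2 effect was -0.25 (95% interval -0.65 to 0.14). In P19 cells Dlk1 was between 6.15 and 7.14 in all 4 groups, and the differences were -0.25 with MyoD (limma adjusted p = 0.213) and 0.25 with NeuroD2 (limma adjusted p = 0.409). A second Dlk1 probe set was called in no comparison. It read 4.55 to 5.32 on 23 arrays and 6.04 on P19 control replicate 2 of batch 1.

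Meg3 is a maternally expressed long noncoding RNA that follows Dlk1 on chromosome 12. It was lower in MEFs with MyoD, which read 11.26, 11.06 and 11.09, against 12.11, 12.06 and 11.95 in controls. The fall was 0.90 (SE 0.296, limma adjusted p = 0.0354). It missed the threshold when any 1 of those 6 arrays was left out (limma adjusted p 0.0598 to 0.106). The difference then stayed between -0.97 and -0.86. The call ended in 7 of 33 alternatives, and adjusted p (limma) was as low as 3.75e-07 in the others. Against MEF controls of batch 2, which read 11.27, 11.48 and 11.45, the difference was -0.27 (limma adjusted p = 0.631). MEFs labelled NeuroD2 overlapped those controls, with 11.51, 11.38 and 11.37. P19 cells with MyoD read 11.83, 11.68 and 11.87, above all 3 controls at 11.36, 10.75 and 11.14, and the difference of 0.71 did not pass (limma adjusted p = 0.154). Leaving out P19 control replicate 1 of batch 3, an array outside that pair with a Meg3 value of 9.27 beside 10.70 and 11.18, brought it past the threshold (limma adjusted p = 0.0199). The MyoD effect in MEFs was 1.61 lower than that in P19 cells (limma adjusted p = 0.0103). Of 11 Meg3 probe sets, 4 fell with MyoD in MEFs and none rose, and 2 rose with NeuroD2 in P19 cells, by 0.73 and 0.89. The brightest read 10.68, 11.22 and 11.23 there, against 9.27, 10.70 and 11.18 in controls, and the groups overlapped. It differed by 0.66 (limma adjusted p = 0.273), by 0.11 without control replicate 1 (limma adjusted p = 0.968), and by 1.06, past the threshold, without control replicate 3 (limma adjusted p = 0.0236).

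H19, a maternally expressed long noncoding RNA that stays high in skeletal muscle and holds Mir675, lies between Mrpl23 and Igf2 on chromosome 7. In MEFs its shared probe set rose with MyoD and was not called with the NeuroD2 label. These 2 pairs also differ in batch and in the medium described, so factor, batch and medium cannot be told apart. MEFs with MyoD read 14.21, 14.24 and 14.24, against 9.76, 9.75 and 9.19 in controls, a 25.3-fold rise (log2 difference 4.66, SE 0.584, limma adjusted p = 3.13e-06). MEFs labelled NeuroD2 read 9.56, 9.93 and 9.78, against 10.35, 10.31 and 10.20, all below the controls, with a difference of -0.53 that did not pass (limma adjusted p = 0.802). It passed with only the 6 compared arrays fitted (limma adjusted p = 0.0111), and also without P19 control replicate 1 of batch 3, an array outside the pair. The MyoD effect was 5.19 higher than the NeuroD2 effect (limma adjusted p = 0.000102). P19 cells with MyoD read 11.88, 11.78 and 11.90, against 10.34, 9.72 and 10.22 in controls. These groups did not overlap, but the difference of 1.76 did not pass (limma adjusted p = 0.113). The spread was widest in P19 controls of batch 3, whose replicate 1 read 6.69 beside 10.32 and 10.55. Without that array the Mir675/H19 rise with MyoD in P19 cells passed (1.76, limma adjusted p = 6.73e-07). With it left out, the difference of P19 cells with NeuroD2, which read 10.64, 10.83 and 10.76, was 0.30 (limma adjusted p = 0.513), in place of 1.55 (limma adjusted p = 0.156).

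Grb10 encodes an adaptor that binds the insulin and IGF receptors and restrains growth, and lies between Ddc and Cobl on chromosome 11. It fell in P19 cells with NeuroD2 and rose in MEFs with MyoD. P19 cells with NeuroD2 read 8.09, 8.50 and 8.78, against 9.17, 10.41 and 10.43 in controls, a fall of 1.55 (SE 0.270, limma adjusted p = 0.000688) that ranked 16 among the falls of all genes. Without control replicate 1, the lowest control, Grb10 fell by 1.96 (limma adjusted p = 6.04e-06). All 3 Grb10 probe sets fell there, the others by 1.13 and 0.85. MEFs with MyoD read 13.27, 13.22 and 13.23, against 12.36, 12.33 and 12.35 in controls. The 0.89 rise passed (limma adjusted p = 0.0212). It missed the threshold when any 1 of the 6 arrays was left out (limma adjusted p 0.0554 to 0.0614). Its size then stayed between 0.88 and 0.90. The call ended in 6 of 32 alternatives, and adjusted p (limma) was as low as 5.15e-09 in the others. The other probe sets rose by 1.48 and 1.02 (limma adjusted p = 2.29e-08 and 0.00411). MEFs labelled NeuroD2 read 12.74, 12.72 and 12.72, above their controls at 12.12, 12.12 and 11.97, and the 0.66 difference did not pass (limma adjusted p = 0.169). It passed in 4 alternatives, with adjusted p from 1.65e-05 to 0.0373: only the arrays compared, array weights, and without P19 control replicate 2 of batch 1 or replicate 1 of batch 3, arrays outside the pair. Of the other Grb10 probe sets, 1 rose (0.54, limma adjusted p = 0.00955) and 1 differed by 0.59 (limma adjusted p = 0.178). The NeuroD2 effect in MEFs exceeded that in P19 cells by 2.21 (limma adjusted p = 0.000465). Probe sets of Grb10 disagreed between the MEF control batches: the brightest differed by -0.28 (limma adjusted p = 0.778), while another read 9.97, 10.01 and 9.92 in batch 2, against 8.37, 8.39 and 8.22 in batch 1 (1.64, limma adjusted p = 5.84e-07). The remaining one averaged 7.86 in batch 2, against 6.88 in batch 1 (0.99, limma adjusted p = 0.0269).

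**Figure D4:**
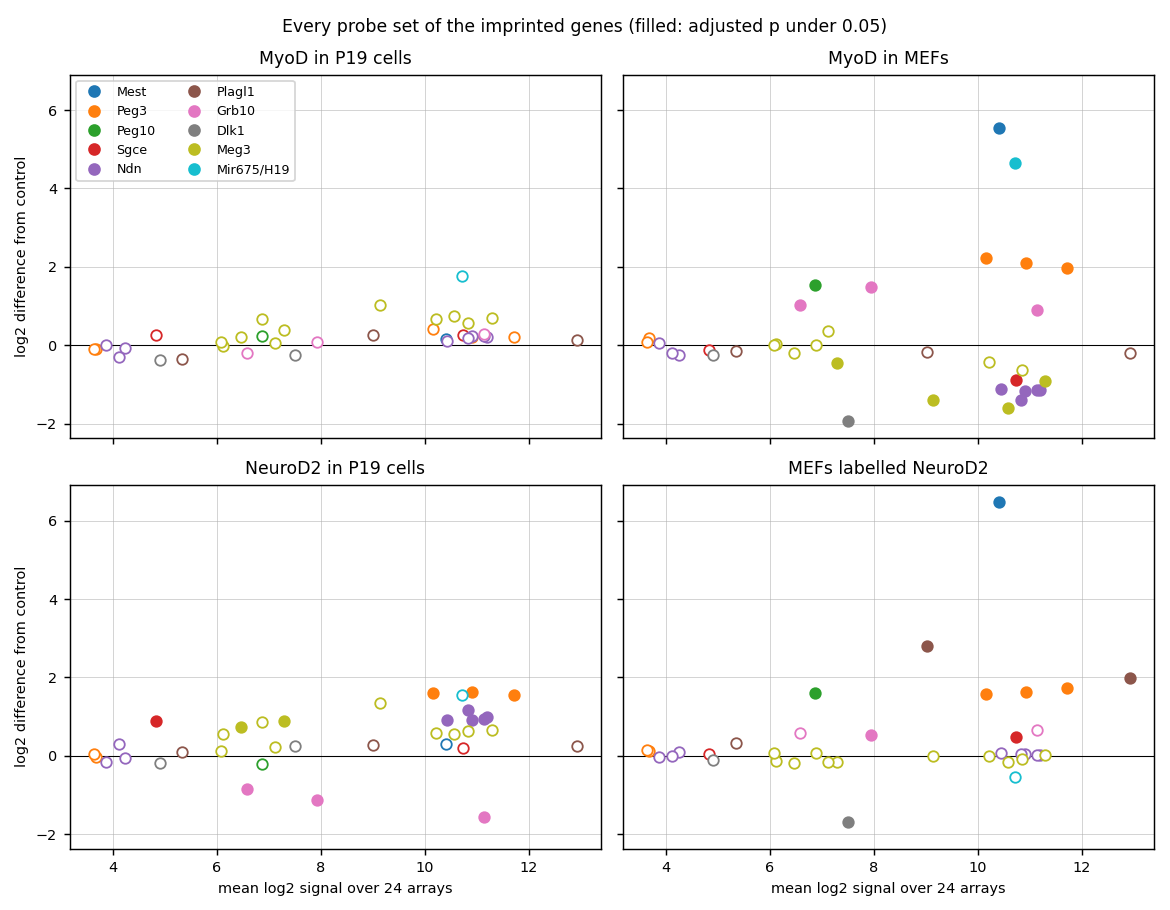
Log2 difference from control (vertical axis) against mean log2 signal over the 24 arrays (horizontal axis) for all 37 probe sets, in the 4 pairs; filled points passed an adjusted p of 0.05. Probe sets near 4 lie close to 0 in all 4 pairs, and in the 2 MEF pairs Mest stands alone above 5.

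Of the 27 further probe sets, 4 were called higher and 7 lower with MyoD in MEFs, where 19.7% of all 45037 probe sets were called. The counts were 4 higher and 0 lower in MEFs labelled NeuroD2, where 9.65% were called, and 9 higher and 2 lower with NeuroD2 in P19 cells, where 6.12% were called. None of these went against the direction of the gene's brightest probe set.

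The untransduced cells differed in all 9 genes, where 50.3% of genes were called between MEF and P19 controls of batch 1. Over the alternatives, 6 to 9 of the 9 were called. Mest was 7.33 lower in MEF controls (SE 0.185, limma adjusted p = 1.78e-17), rank 7 among the falls. Peg10 (-1.71), Peg3 (-1.07) and Plagl1 (-0.70) were lower too, while Dlk1 (2.78), Grb10 (2.35), Meg3 (0.95), Ndn (0.65) and Sgce (0.51) were higher in MEF controls. Mir675/H19 was not called, with 9.76, 9.75 and 9.19 in MEF controls, against 10.34, 9.72 and 10.22 in P19 controls (-0.53, limma adjusted p = 0.481). Without P19 control replicate 2, 8 of 9 were called, Ndn was at 0.26 (limma adjusted p = 0.164), and Sgce was at 0.28 (limma adjusted p = 0.0239). The Peg3 call ended without P19 control replicate 1 (-0.94, limma adjusted p = 0.0513) or MEF control replicate 3 (-0.99, limma adjusted p = 0.0583), and the Ndn call also without MEF control replicate 1 (limma adjusted p = 0.0516) or 3 (limma adjusted p = 0.0682). The size for Peg10 depended on the batch of the controls. With MEF controls of batch 2 and P19 controls of batch 3 it was -5.60 in place of -1.71. The Peg3 call also ended with those controls (-0.70). Fitting only the arrays compared ended the Sgce, Ndn and Plagl1 calls. The Plagl1 call also ended when probe sets with names ending in x_at, s_at or a_at were left out. Quantile normalization repeated ended the Meg3 call (limma adjusted p = 0.0616). A dim probe set of Sgce and 1 of Meg3 went the other way from the brightest, by -0.37 and -0.52. All 8 fibroblast markers were higher and 7 of 8 pluripotent markers lower in the MEF controls.

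Tests of the differences between effects separated the MEF pairs from the P19 pairs for most genes. The MyoD effect differed between MEFs and P19 cells for 7 of 9 genes, 3 higher and 4 lower in MEFs, where 20.1% of genes were called. The change of medium was described for the MyoD MEFs alone, so cell type, medium and harvest time cannot be told apart there. The NeuroD2 effect differed for 5 of 9, 4 higher and 1 lower, where 9.82% were called. Those MEF and P19 pairs lie in different batches. Between factors, 4 of 9 genes, Mest, Sgce, Ndn and Plagl1, had a lower MyoD than NeuroD2 effect in MEFs, where 18.2% were called. The 2 MEF pairs also differ in batch and in the medium described, so factor cannot be told apart from these. In P19 cells the effects differed for 1 of 9, Grb10, whose MyoD effect was 1.83 higher (limma adjusted p = 0.00647), where 5.05% were called.

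The 5 genes whose 8 group means were most correlated with those of Mest, among 8927 genes of above-median signal, were Zfp691 (Pearson r = 0.976), Lama5 (0.973), Kctd6 (0.960), Stc2 (0.955) and Ipo13 (0.947). Lama5, a laminin chain of basement membranes, averaged 9.03 in MEFs with MyoD, against 7.19 in controls, and 9.41 in MEFs labelled NeuroD2, against 7.42. Stc2, a secreted glycoprotein, averaged 8.61 against 7.06 and 9.60 against 6.94 in the same pairs. Among the imprinted genes the correlations with Mest were 0.759 for Peg3, 0.751 for Plagl1, 0.658 for Peg10 and 0.172 for Mir675/H19, and -0.312 for Ndn, -0.344 for Sgce, -0.508 for Meg3, -0.528 for Grb10 and -0.969 for Dlk1. These correlations run over 8 group means that share arrays of 2 cell types, were used to choose the 5 genes, and are given as description.

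A list of 66 other imprinted genes, also chosen with earlier results known, had 56 on the array. With MyoD in MEFs 11 rose and 7 fell, 32.1% of the 56 against 24.4% of all genes. The largest rises were in Ddc, the decarboxylase that makes dopamine and serotonin and the neighbour of Grb10 (log2 difference 5.14, 9.21 against 4.07 in controls), in Igf2, the fetal growth factor beside H19 (5.05, 11.97 against 6.93), and in Cdkn1c, a cyclin-dependent kinase inhibitor (4.58, 10.35 against 5.77). Atp10a (-1.94), Dcn (-1.80), which encodes the matrix proteoglycan decorin, and Qpct (-1.56) had the largest falls (limma adjusted p from 1.65e-15 to 2.9e-06 for these 6). MEFs labelled NeuroD2 had 3 higher and none lower by limma, 5.36% of the 56 against 11.9% of all genes: Phactr2, the neighbour of Plagl1 in the list (1.52), Pon3 of the Peg10 cluster (0.79), and Copg2, the neighbour of Mest (0.70, 9.54 against 8.84, limma adjusted p = 0.000806).

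In P19 cells with NeuroD2 2 of the 56 rose and 2 fell, 7.14% against 7.82% of all genes. Nnat, a small membrane protein of developing neurons, rose 29-fold (log2 difference 4.86, 13.14 against 8.29, limma adjusted p = 4.76e-08), and Usp29, the neighbour of Peg3, rose by 0.96. Dcn had the largest fall of all 18193 genes (-2.90, 6.07 against 8.97), and Phlda2 fell by 0.74. With MyoD, Gatm, an enzyme of creatine synthesis, was the 1 called, 1.79% against 2.51% of all genes (1.90, 7.37 against 5.48, limma adjusted p = 2.79e-08). Between untransduced MEFs and P19 cells 16 were higher in MEFs, led by Dcn (5.26), Axl (4.76) and Igf2r (3.31), and 22 lower, led by Slc38a4 (-4.78), Ddc (-4.56) and Phlda2 (-4.30), in all 67.9% of the 56 against 50.3% of all genes. The P19 control batches differed in 5, 8.93% against 13.4% of all genes, with Sfmbt2 (1.68), Mcts2 (0.65) and Trappc9 (0.62) among the 4 higher in batch 3, and Pon3 lower (-0.94). The MEF control batches differed in 1, Qpct (-0.71), 1.79% against 2.69% of all genes.

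**Figure D5:**
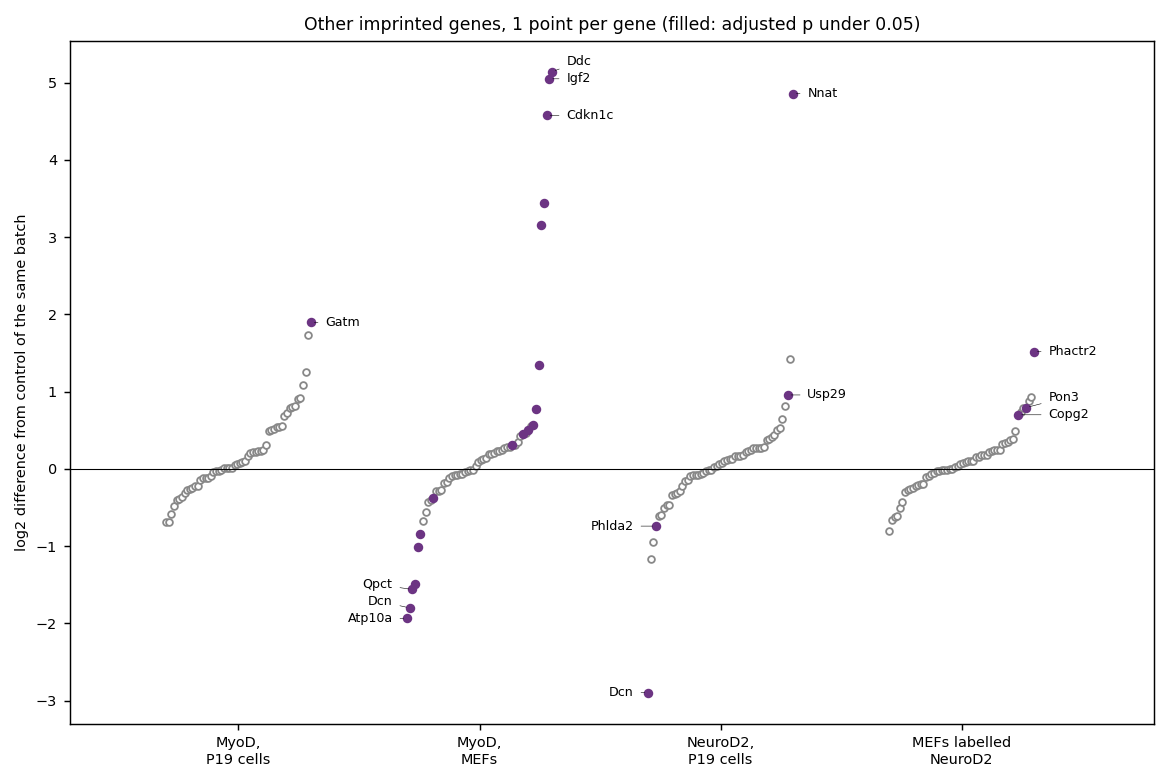
Log2 difference from controls of the same batch (vertical axis) for 56 other imprinted genes in the 4 pairs, ordered by value within each pair; filled points passed an adjusted p of 0.05 and named points are those in the text. With MyoD in MEFs Ddc, Igf2 and Cdkn1c lie above 4.5, and with NeuroD2 in P19 cells Nnat lies at 4.86 and Dcn at -2.90.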

How the data were processed

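The authors deposited log2 intensities in 1 table of 24 arrays. The submitters' processing notes list limma alone and no version of it. How background, normalization and probe summary were handled, and on which genome build, is not stated there, and no detection calls come with the values. Quartiles of 23 arrays match closely, and those of P19 control replicate 2 of batch 1 do not, so its normalization may differ. The number of arrays limits the precision.

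Groups, batches and replicate numbers came from the sample titles, since the characteristics of transduced samples all describe neuronal differentiation. Of 45101 probe sets, 64 Affymetrix controls were left out. Each of the other 45037 was fitted with a mean per group over all arrays (limma 3.58.1, R 4.3.3, 16 residual and 3.66 prior degrees of freedom), two-sided, with Benjamini-Hochberg adjustment across all of them. "Rose", "fell" and "called" mean an adjusted p under 0.05. The array annotation gave 34945 probe sets 1 symbol, 932 several and 9160 none. Counts over all genes use 1 probe set per symbol, the brightest, for 18193 genes. The code was tested on simulated data.

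The members and lists were chosen with earlier results of these data known. Every member is named whatever its values, and of the list of other imprinted genes up to 3 called genes each way per comparison. Of that list 10 genes are not analysed here. Alternatives were another normalization, a shift to equal medians, filters on dim or less specific probe sets, 1 probe set per gene, only the arrays compared, array weights, controls of the other batch, a replicate block and leaving out each array.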

Additional observations from a re-analysis of the deposited data

Results flagged for a closer look

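The effects below differed between MEFs and P19 cells by the test of the difference itself (limma, adjusted over all probe sets). MyoD differences are MEFs minus P19 cells: Mest 5.38, Mir675/H19 2.899, Peg3 1.756 and Peg10 1.299 were higher in MEFs, while Sgce -1.154, Ndn -1.366, Meg3 -1.61 and Dlk1 -1.694 were lower. The change of medium was described for the MyoD MEFs alone, so cell type, medium and harvest time cannot be told apart here. Myod1 itself averaged 12.73 in MEFs with MyoD, against 9.66 in P19 cells with MyoD. Adjusted p ran from 4.61e-12 for Mest to 0.0397 for Peg10, whose call ended in 13 of 32 alternatives. For NeuroD2, where the MEF and P19 pairs lie in different batches, the differences were 6.18 for Mest, 2.206 for Grb10, 1.828 for Peg10, 1.74 for Plagl1 and -1.941 for Dlk1. Their adjusted p ran from 1.3e-12 for Mest to 0.00699 for Peg10. Both Dlk1 differences rest on 1 probe set, since the other is dim.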

How the results depend on the processing

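Called results of the 9 genes and Mir675/H19, 47 in all over 11 comparisons, had 1520 values under the alternatives: 1455 kept direction and call, 61 kept direction and lost the call, and 4 turned sign. Of 2017 values of uncalled results, 70 were newly called in the same direction and 3 with the sign turned. Dropping the less specific probe sets, whose names end in x_at, s_at or a_at, left a dim probe set to stand for some genes, which turned Sgce (-0.37) and Dlk1 (-0.18) between MEF and P19 controls, Dlk1 for the MyoD (0.13) and NeuroD2 (0.0855) effects in MEFs minus P19, and Sgce for the latter NeuroD2 difference (-0.86). It also left 5 genes called with MyoD in MEFs, 3 in MEFs labelled NeuroD2, 3 for the NeuroD2 difference between cells and 0 for MyoD minus NeuroD2 in P19 cells. Controls of the other batch gave 2 called with MyoD and 5 with NeuroD2 in P19 cells, with Peg10 at -3.89 and 3.90. Quantile normalization repeated gave 4 between P19 batches, 1 between MEF batches and 2 for MyoD minus NeuroD2 in P19 cells. Fitting only the arrays compared gave 0, 3 and 0 there, and array weights 4, 3 and 3, besides 1 with MyoD in P19 cells and 8 for the NeuroD2 difference between cells. The cause of these shifts was not tested. Leaving out 1 array gave 0 to 1 called with MyoD in P19 cells, 6 to 8 with MyoD in MEFs, 2 to 4 with NeuroD2 in P19 cells, 5 to 7 in MEFs labelled NeuroD2, 7 to 9 between cells, 1 to 4 between P19 batches, 0 to 1 between MEF batches, 6 to 8 and 5 to 6 for the 2 differences between cells, and 1 to 3 and 3 to 5 between factors in P19 cells and MEFs. Deviations of same-numbered replicates had correlations from -0.196 to 0.314, and in 0 of 7 comparisons was every pair over 0.1. In P19 cells 2 of 3 pairs were over 0.1 with MyoD, and 2 of 3 with NeuroD2, where all 3 lay between 0.0545 and 0.19. A replicate block changed no count of called genes by over 1.5 times, and ended 1 call, Sgce in MEFs labelled NeuroD2 (0.4766, limma adjusted p = 0.0505). Low signal limits the Mest, Peg10 and Dlk1 values in the cells where these genes are dim.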
